A study of Homo sapiens with 18 samples.

Results

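DNA replication machinery genes were followed in Cal51, an established line of human breast cancer cells. The set holds 48 genes chosen by name, from origin licensing to chromatin assembly behind the fork, and 28 of them were listed in the deposited tables, which list 3647 genes in all. RNA was sequenced from 4 groups of 3 libraries, all treated for 8 h: fenofibrate plus ezetimibe (here called the combination), fenofibrate alone, ezetimibe alone, and DMSO, the solvent. Fenofibrate lowers blood lipids through the nuclear receptor PPARα, and ezetimibe inhibits the sterol transporter NPC1L1. The labels give no dose and name no separate cultures, so p-values measure the spread between these libraries, which may be technical. A further 6 libraries, of cells without PKM2 and of their control, are not analysed here.

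There are 3 deposited tables, 1 for each drug treatment, and all use the same DMSO libraries. Each holds only genes that the authors called: the smallest size listed is a log2 fold change of 1 in either direction and the adjusted p stays under 0.05. A gene that is not listed can therefore have changed less, varied more or been too low to test, and its value is not known. Values are normalised read counts, in the combination table reads divided by a factor for each library. Over the genes of the combination table, reads came to 2550718 to 2890139 in a combination library and 2985068 to 3265200 in a DMSO library. The total depth is unknown. The tables cannot check the cell type: of 7 epithelial markers only KRT7 was in the combination table, at 38.7 ± 9.22 in combination libraries and 3.82 ± 2.40 in DMSO libraries (normalised counts, SD, n = 3 each), and of 12 markers of other cells it held COL1A1 and PDGFRB, both lower (log2 fold changes -1.95 and -1.52). The ezetimibe table held CLDN4 of the epithelial markers as higher and CDH5 of the others as lower, both at low levels. Their log2 fold changes were 1.48 and -1.31. The part of these markers in the results below was not tested.

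Replication begins with licensing, in which the origin recognition complex, CDC6 and CDT1 load the ring of MCM proteins on DNA. The kinase CDC7 with DBF4, then CDC45, the GINS proteins and MCM10, turn that ring into an active helicase. Polymerase alpha with its primase starts each strand, polymerases delta and epsilon extend it on the sliding clamp PCNA, and FEN1 and LIG1 seal the pieces. Ribonucleotide reductase, thymidylate synthase and thymidine kinase supply the nucleotides, and CAF-1 and UHRF1 restore histones and DNA methylation on the new strands. Many of these genes are known targets of E2F transcription factors.

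Promoters of members that fell are shown first, because these genes are known for E2F sites. The 250 bases before each RefSeq start (GRCh38.p14) were searched on both strands for TTTCCCGC, TTTGGCGC, TTTCGCGC and TTTGCCGC, the words of the E2F consensus. In the sequences, written 5′ to 3′ on the gene's strand, capitals mark these words and their reverse complements. The 4 windows are those of listed members with a word and at most 30 bases of annotated exon.
UHRF1 (chr19:4909894-4910143, plus strand), the member that fell most:
UHRF1: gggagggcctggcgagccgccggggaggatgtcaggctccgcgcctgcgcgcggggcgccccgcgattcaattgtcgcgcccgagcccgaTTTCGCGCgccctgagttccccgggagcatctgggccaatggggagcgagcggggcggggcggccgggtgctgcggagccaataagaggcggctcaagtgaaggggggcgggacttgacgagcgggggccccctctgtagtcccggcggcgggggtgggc
POLA1 (chrX:24693668-24693917, plus strand), the catalytic subunit of polymerase alpha:
POLA1: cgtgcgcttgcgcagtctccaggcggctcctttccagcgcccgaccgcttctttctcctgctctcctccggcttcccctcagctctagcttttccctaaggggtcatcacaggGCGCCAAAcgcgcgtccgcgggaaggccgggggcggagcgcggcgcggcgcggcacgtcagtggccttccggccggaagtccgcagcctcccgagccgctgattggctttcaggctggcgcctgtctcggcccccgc
MCM6 (chr2:135876444-135876693, minus strand), a helicase subunit:
MCM6: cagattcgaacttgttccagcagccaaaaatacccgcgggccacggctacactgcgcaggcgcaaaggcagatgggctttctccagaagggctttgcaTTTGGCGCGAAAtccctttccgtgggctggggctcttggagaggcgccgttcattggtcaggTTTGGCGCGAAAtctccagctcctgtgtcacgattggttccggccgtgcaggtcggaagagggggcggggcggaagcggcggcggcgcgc
POLE (chr12:132687343-132687592, minus strand), the catalytic subunit of polymerase epsilon:
POLE: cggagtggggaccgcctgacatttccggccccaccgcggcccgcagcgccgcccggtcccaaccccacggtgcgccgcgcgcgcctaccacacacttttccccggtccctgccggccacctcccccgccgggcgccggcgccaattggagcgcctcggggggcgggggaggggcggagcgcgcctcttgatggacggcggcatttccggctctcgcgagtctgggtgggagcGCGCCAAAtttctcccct

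The MCM6 window holds 4 words in 2 runs, each made of TTTGGCGC on one strand overlapping TTTCGCGC on the other. A single word lies in each of the UHRF1, POLA1 and POLE windows, beginning 160, 137 and 18 bases before the start. The UHRF1 window lies inside the span of the gene (4903080 to 4962154), so its start is not the first annotated one. Which start these cells use was not tested. Across the set, 41 of the 48 members had a RefSeq window. At least 1 word was found in 11 of 33 windows of listed members (33.3%), in 5 of 22 windows of members not listed (22.7%) and in 2.79% of all 35116 windows. The CCAAT box, searched as CCAAT on both strands, was in 63.6% of windows of listed members, 40.9% of those of members not listed and 32.0% of all. The Sp1 word GGGCGG, searched likewise, was in 72.7%, 68.2% and 42.6% of these windows, so it differed little between listed members and those not listed. Base composition differed as well, with a mean of 65.0% G and C in windows of listed members, 64.1% in those not listed and 57.2% in all. Several members have more than 1 start, so windows are not independent, and a word is a match of letters, not a site shown to be bound.

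The combination table listed 28 of the 48 members, all of them lower, in each step of replication. None was listed with fenofibrate alone or with ezetimibe alone. The share listed as lower with the combination was 58.3% of the members, against 7.27% of all 19944 genes that the authors are inferred to have tested. Of all those genes 10.3% were listed as higher, while 0 of the 48 members were. The members were chosen with earlier results of these data known, so these shares are a description and no test. The listed members were also highly expressed, with a median DMSO mean of 1656 normalised counts, against 514 for all genes listed as lower. The part of expression level in the share was not tested. With fenofibrate the authors listed 0.0737% of all genes as lower and 0.761% as higher, 0.835% in all, and with ezetimibe 0.772% as lower and 2.70% as higher, 3.47% in all. The 0 of 48 members listed with either drug is near those shares and is no result about the members. Because a member not listed with a single drug has no value there, whether the combination differed from either drug could not be tested.

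Among the 28 members, the mean after the combination was between 14.9% and 49.8% of the DMSO mean. Their median log2 fold change was -1.39, against -1.37 for the 1175 genes listed as lower with a mean of at least 50 normalised counts. UHRF1 at -2.74 and POLE at -1.003 were the ends of the range. In all 28 the combination and DMSO libraries did not overlap, as in 99.3% of the 1450 genes listed as lower, and limma called all 28, as it did 100% of the table. The authors picked the table's genes on these same libraries, so these counts describe the members and are no independent evidence. Each limma adjusted p given for a gene was adjusted over these picked genes only. It describes the spread between the libraries and is no corrected evidence over all genes tested. Summed over the 28 members, the normalised counts were 28286, 26315 and 26627 in the combination libraries and 73789, 72660.0 and 75034 in the DMSO libraries. In bulk RNA, fewer cells in S phase and less RNA per cell cannot be told apart.

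**Figure D1:**
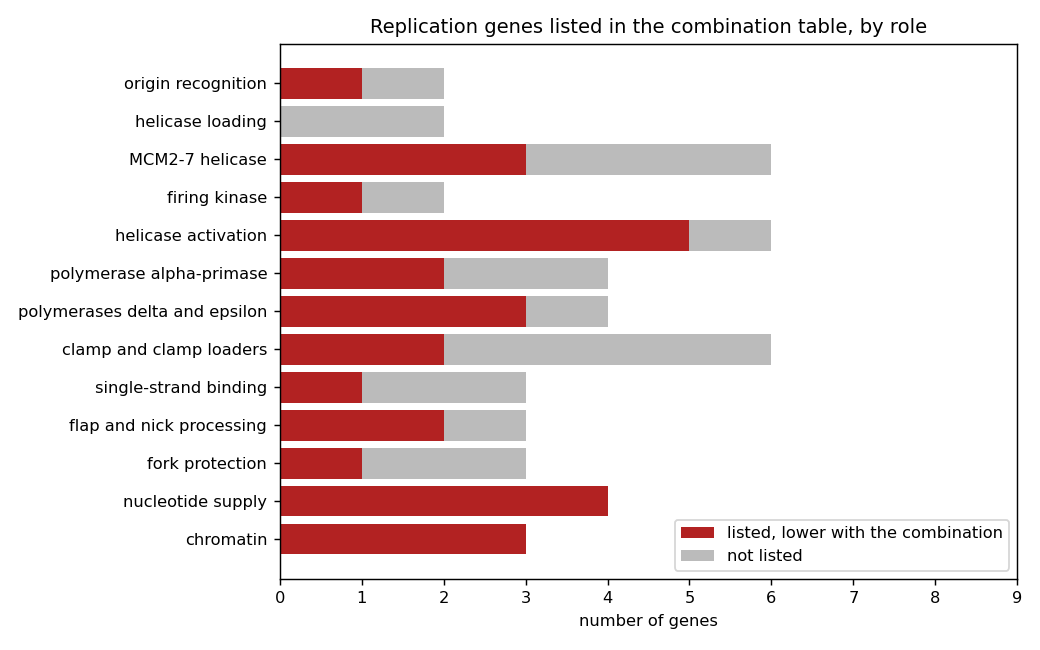
Number of replication genes by role (rows), split into those listed as lower in the combination table (red) and those not listed (grey). The nucleotide supply group (4 of 4) and the chromatin group (3 of 3) were listed whole, and helicase loading had 0 of 2. Of all genes tested 7.27% were listed as lower.

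Every step had listed members. Licensing had 5 of 12 members listed, the fork 16 of 29, nucleotide supply 4 of 4 and chromatin 3 of 3. Of all genes tested 7.27% were listed as lower. The members were chosen with earlier results of these data known, so counts by step or role are a description and no test. Licensing is counted here with the firing kinase, CDC7 and DBF4, and the fork with the other genes of helicase activation. Within the fork, helicase activation had 5 of 6 members listed and the clamp and its loaders 2 of 6. Those not listed were ORC6, CDC6, CDT1, MCM2, MCM5, MCM7 and DBF4 of licensing, and GINS3, POLA2, PRIM1, POLD1, RFC2, RFC3, RFC4, RFC5, RPA2, RPA3, EXO1, TIMELESS and TIPIN of the fork. RFC2 to RFC5 are the small subunits of the clamp loader, CDC6 and CDT1 the loaders of the MCM ring, and TIMELESS and TIPIN a pair that steadies stalled forks.

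In licensing, MCM4 fell most. MCM4, a subunit of the helicase ring (ENSG00000104738, chromosome 8, 47960185 to 47978160 on hg38), had 2145, 2024 and 1948 normalised counts in the combination libraries, against 7800.4, 7372 and 8044 in the DMSO libraries. The 3 combination libraries lay close together, far below the lowest DMSO library. The log2 fold change was -1.92 ± 0.09 (SE, n = 3 each, limma adjusted p = 6.31e-08), a 3.80-fold lower mean.

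The ring subunits MCM3 and MCM6 fell less. MCM3 (ENSG00000112118, chromosome 6, 52264009 to 52284881) had 2988, 2541 and 2623 normalised counts with the combination, against 5936, 6036 and 5991 with DMSO. MCM6 (ENSG00000076003, chromosome 2, 135839626 to 135876426) had 1684, 1732 and 1744 with the combination, against 3898, 3757 and 4056 with DMSO. The DMSO values of both genes lay close together, and the groups were well apart. Their log2 fold changes were -1.14 ± 0.10 and -1.18 ± 0.09. The ring subunits MCM2, MCM5 and MCM7 were not listed.

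Outside the ring, ORC1 and CDC7 fell by about as much as each other. ORC1, the origin recognition subunit that varies over the cell cycle (ENSG00000085840, chromosome 1, 52372829 to 52404459), had 673, 578 and 599 normalised counts with the combination and 1343, 1262 and 1407 with DMSO (log2 -1.12 ± 0.11). CDC7, the kinase that fires licensed origins (ENSG00000097046, chromosome 1, 91500893 to 91525764), had 653, 764 and 698 with the combination and 1433, 1384 and 1480.4 with DMSO (log2 -1.02 ± 0.10). In both genes every combination library was below every DMSO library, as in 99.3% of all genes listed as lower. CDC7 was also among the 3 members nearest the listing limit.

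Helicase activation held some of the larger falls. MCM10, which helps start unwinding (ENSG00000065328, chromosome 10, 13161554 to 13211104), had 413, 506 and 504 normalised counts with the combination, against 1542, 1574 and 1679 with DMSO (log2 -1.76 ± 0.11, limma adjusted p = 3.24e-07). Combination replicate 1 was the lowest of the 6 libraries. The GINS subunits, which tie the helicase to polymerase epsilon, had log2 fold changes of -1.54 for GINS4, -1.54 for GINS1 and -1.42 for GINS2. GINS1 averaged 947 ± 16.4 in combination libraries and 2756 ± 146 in DMSO libraries (SD, n = 3 each). CDC45, which joins the ring and GINS in the active helicase, averaged 529 ± 37.5 in combination libraries and 1167 ± 38.3 in DMSO libraries and changed by -1.14 on the log2 scale.

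**Figure D2:**
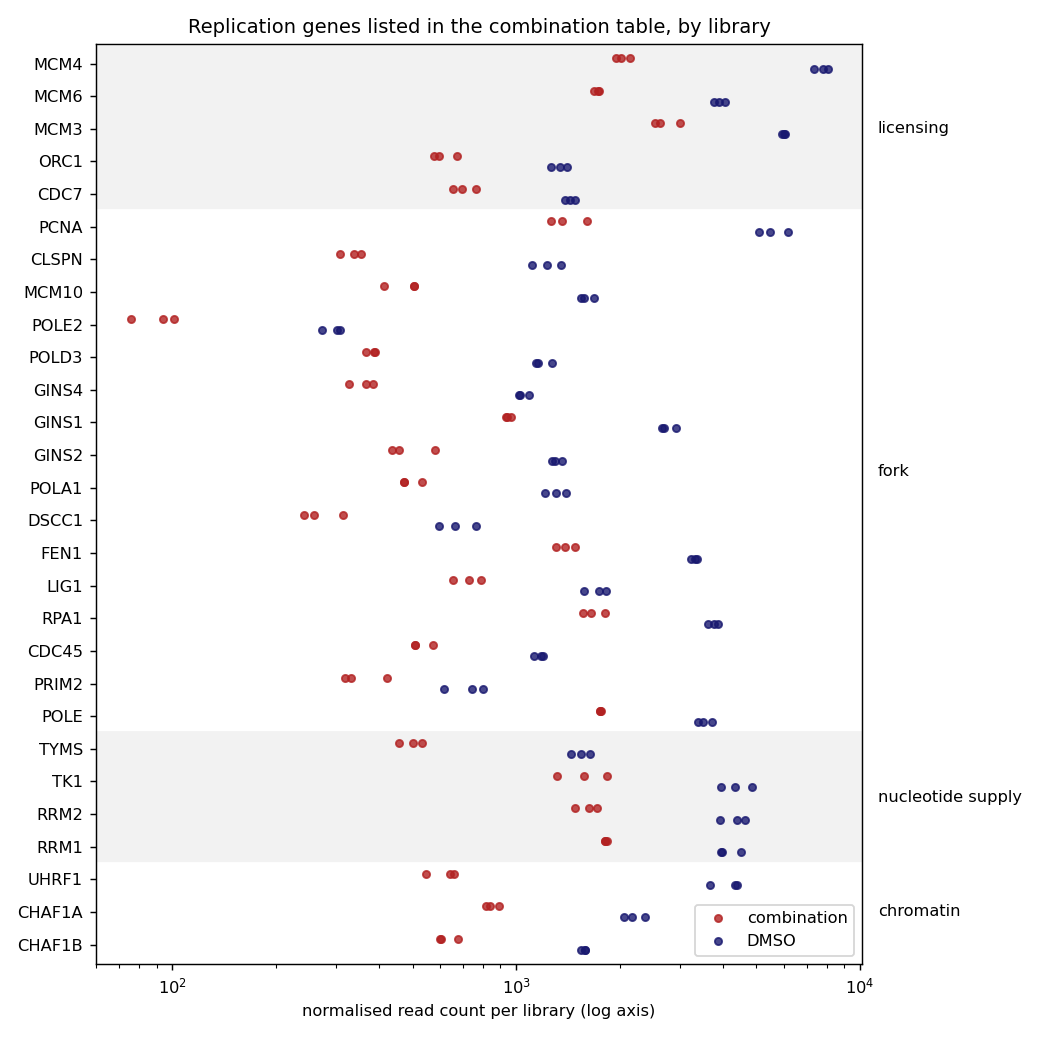
Normalised read counts (log axis) of the 28 listed replication genes, one point per library, grouped by step, with combination libraries in red above DMSO libraries in dark blue. In every gene the 3 combination points lie left of the 3 DMSO points, as in 99.3% of all genes listed as lower.

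Both listed subunits of polymerase epsilon fell, POLE2 further than POLE. POLE2, the second subunit of polymerase epsilon (ENSG00000100479, chromosome 14, 49643555 to 49688422), had 75.6, 101 and 93.8 normalised counts with the combination, against 301, 273 and 307 with DMSO (log2 -1.70 ± 0.17). It had the lowest level of the 28, so each value rests on few reads. POLE, the catalytic subunit (ENSG00000177084, chromosome 12, 132623753 to 132687365), had 1753, 1756 and 1767 with the combination, against 3502, 3701 and 3384 with DMSO (log2 -1.003 ± 0.09). The combination values of POLE differed by little among themselves and lay below all DMSO values.

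POLD3, an accessory subunit of polymerase delta, averaged 380.4 ± 12.4 in combination libraries and 1189.8 ± 68.3 in DMSO libraries, with a log2 fold change of -1.64 ± 0.10. POLA1 (ENSG00000101868, chromosome X, 24693919 to 24996986) had 471, 534 and 472 normalised counts with the combination and 1212, 1310.1 and 1397 with DMSO (log2 -1.41 ± 0.11). PRIM2, the large primase subunit (ENSG00000146143, chromosome 6, 57314805 to 57646849), had 422, 319 and 330.4 with the combination and 746, 618 and 799 with DMSO (log2 -1.02 ± 0.15). PRIM2 spread widely in both groups and had the largest limma adjusted p of the 28, 7.55e-05. Together with POLE and CDC7 it lay just inside the listing limit, with log2 fold changes of -1.02, -1.003 and -1.02, and members just outside it have no values.

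PCNA, the sliding clamp (ENSG00000132646, chromosome 20, 5114953 to 5126626), had the second largest fall of the 28. It had 1609, 1361 and 1262 normalised counts with the combination, against 5479.6, 5086 and 6163 with DMSO (log2 -1.99 ± 0.12, limma adjusted p = 2.20e-07). Combination replicate 1 was the highest of its group, and still far below the lowest DMSO library. DSCC1, part of an alternative clamp loader, averaged 271 ± 37.8 in combination libraries and 675 ± 83.9 in DMSO libraries, with a log2 fold change of -1.31 ± 0.14.

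CLSPN encodes claspin, which carries the checkpoint signal at the fork (ENSG00000092853, chromosome 1, 35720218 to 35769967). It had 307, 354 and 337 normalised counts with the combination, against 1229.7, 1115 and 1346 with DMSO (log2 -1.88 ± 0.12). The groups were apart by more than the spread of either.

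Of the single-strand binding genes 1 of 3 was listed, and of those for flaps and nicks 2 of 3. Of all genes tested 7.27% were listed as lower, and groups of 3 are too small to read further. RPA1, the large subunit of the single-strand binding protein (ENSG00000132383, chromosome 17, 1829702 to 1900082), had 1808, 1565 and 1646 normalised counts with the combination and 3859, 3623 and 3767 with DMSO (log2 -1.17 ± 0.10). FEN1, the flap nuclease (ENSG00000168496, chromosome 11, 61792637 to 61797244), had 1485, 1306 and 1386 with the combination and 3301, 3350.0 and 3223 with DMSO (log2 -1.24 ± 0.09). LIG1, the replicative ligase, averaged 726 ± 66.2 in combination libraries and 1714 ± 124 in DMSO libraries (log2 -1.24 ± 0.11). No combination library overlapped a DMSO library in any of them, as in 99.3% of all genes listed as lower.

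All 4 members of nucleotide supply fell, against 7.27% of all genes tested listed as lower. Most of the 15 other nucleotide supply genes looked up were not listed. As 17.6% of all genes were listed in either direction, that sets no contrast with the members. TYMS, thymidylate synthase (ENSG00000176890, chromosome 18, 657604 to 673578), had 533, 458 and 503 normalised counts with the combination, against 1635, 1445 and 1549 with DMSO (log2 -1.63 ± 0.11). TK1, the cytosolic thymidine kinase (ENSG00000167900, chromosome 17, 78174075 to 78187233), had 1838, 1314 and 1580.0 with the combination, against 4328, 4861 and 3939.7 with DMSO (log2 -1.48 ± 0.13). TK1 had the largest spread of the 28 among combination libraries, with a coefficient of variation of 16.6%. RRM2, the S phase subunit of ribonucleotide reductase (ENSG00000171848, chromosome 2, 10120698 to 10131419), had 1719, 1625 and 1480.5 with the combination, against 4402, 3928 and 4624 with DMSO (log2 -1.42 ± 0.10). RRM1, its large subunit, averaged 1818 ± 12.2 in combination libraries and 4139 ± 314 in DMSO libraries (log2 -1.18 ± 0.09).

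The chromatin members fell too, UHRF1 furthest. UHRF1 binds hemimethylated DNA and recruits the maintenance methyltransferase (ENSG00000276043, chromosome 19, 4903080 to 4962154). It had 548, 644 and 659 normalised counts with the combination, against 4334, 4394 and 3657 with DMSO, and the log2 fold change was -2.74 ± 0.12 (limma adjusted p = 2.92e-08). The large and middle subunits of CAF-1, which places histones on new DNA, moved together. CHAF1A (ENSG00000167670, chromosome 19, 4402662 to 4445018) had 841, 816 and 889 with the combination, against 2168, 2375 and 2054 with DMSO (log2 -1.37 ± 0.10). CHAF1B (ENSG00000159259, chromosome 21, 36385378 to 36419015) had 677, 605 and 601 with the combination, against 1547, 1587 and 1585 with DMSO (log2 -1.33 ± 0.10).

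**Figure D3:**
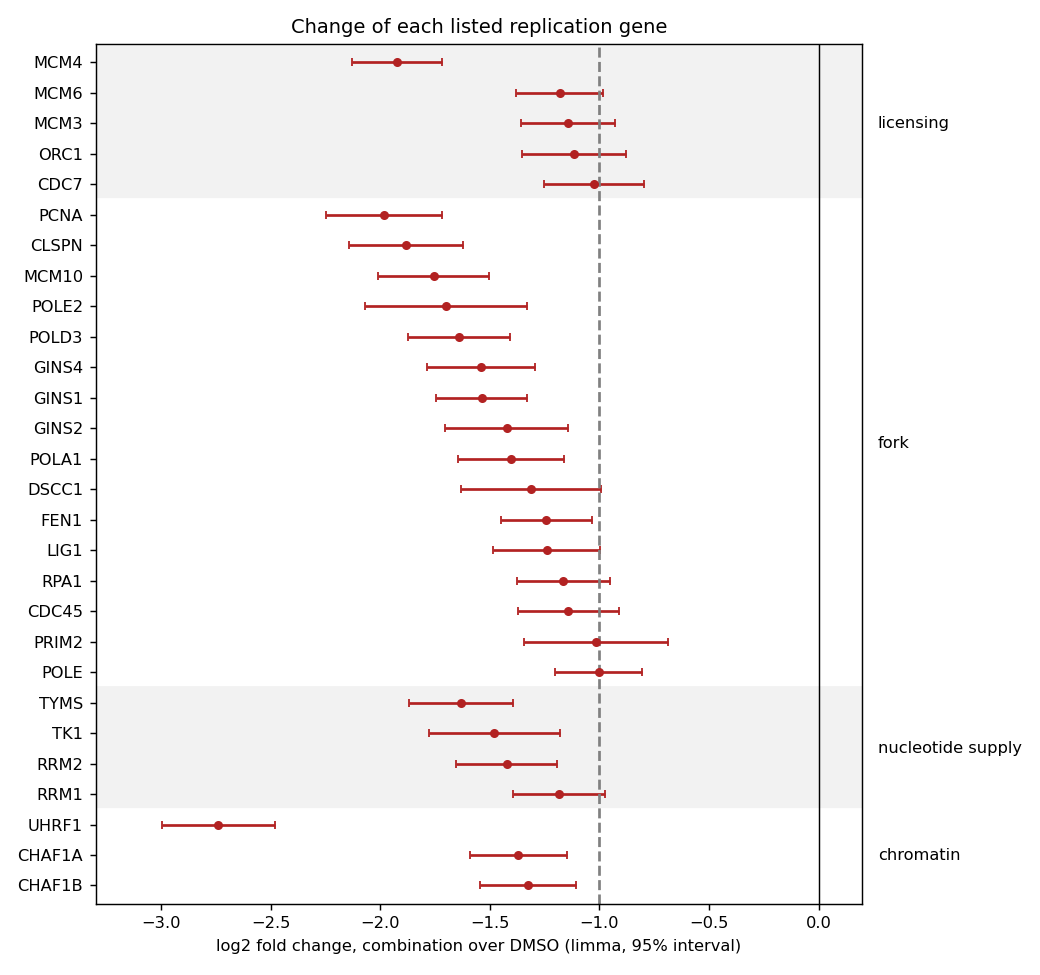
Log2 fold change of each listed replication gene (points, combination over DMSO) with its 95% limma interval, ordered by size within each step. The dashed line is the listing limit at -1, which hides genes that changed less, and UHRF1 at -2.74 stands furthest from it.

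Per kilobase of exon, PCNA, TK1, MCM3 and FEN1 were the most abundant members in both groups. PCNA had 1094, 925 and 858 normalised counts per kb in the combination libraries and 3725, 3458 and 4189.7 in the DMSO libraries. TK1 had 988, 706 and 849 per kb with the combination and 2326, 2612 and 2117 with DMSO. PCNA was thus above TK1 in DMSO without overlap, while with the combination their libraries overlapped. POLE2 was the least abundant, with means of 30.5 per kb with the combination and 99.4 with DMSO. Across the 28 members the log2 fold change had a Spearman rho of -0.08 with the DMSO level per kb and of -0.03 with exon length, given as a description, as the genes share the same libraries.

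**Figure D4:**
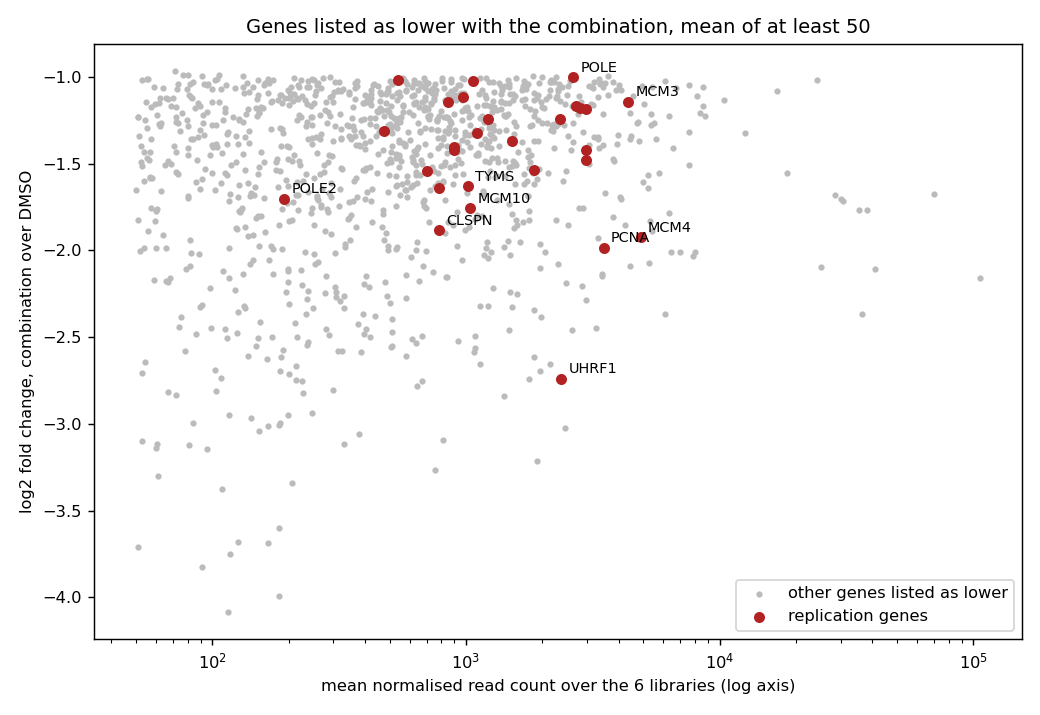
Log2 fold change against mean normalised read count (log axis) for the 1175 genes listed as lower with the combination and a mean of at least 50. Replication genes (red) lie among the other listed genes (grey), from -2.74 (UHRF1) to -1.003 (POLE), and many of the other genes have lower counts or lower fold changes than any of them.

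The proportions of partner transcripts were compared as ratios, on pairs picked after their values were seen. Ratios of counts per kb were taken within each library, so that no scaling between libraries enters them, for 10 pairs of listed members of one complex. The ratio of MCM4 to MCM3 was 0.376, 0.417 and 0.389 in the combination libraries and 0.688, 0.639 and 0.703 in the DMSO libraries. The ratio of MCM4 to MCM6 was 0.752, 0.690 and 0.660 with the combination and 1.18, 1.16 and 1.17 with DMSO. In both pairs the groups were apart, and the ratio differed by -0.78 and -0.74 on the log2 scale.

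POLE2 to POLE was 0.243, 0.323 and 0.299 with the combination and 0.483, 0.414 and 0.511 with DMSO, a log2 difference of -0.71. RRM2 to RRM1 was 0.743, 0.705 and 0.634 with the combination and 0.870, 0.781 and 0.806 with DMSO, a smaller log2 difference of -0.24. These were the 4 pairs without overlap between the groups. In an exact permutation test (2-sided) each reached p = 0.1, the smallest that 3 libraries against 3 allow, and an adjusted p of 0.25 over the 10 pairs, so none passed.

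The other 6 pairs overlapped. CHAF1A to CHAF1B was 1.48, 1.61 and 1.76 with the combination and 1.67, 1.78 and 1.54 with DMSO. MCM6 to MCM3 was 0.499, 0.604 and 0.589 with the combination and 0.582, 0.552 and 0.600 with DMSO. The 3 GINS pairs differed by -0.01 to -0.12 and POLA1 to PRIM2 by -0.39 on the log2 scale.

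**Figure D5:**
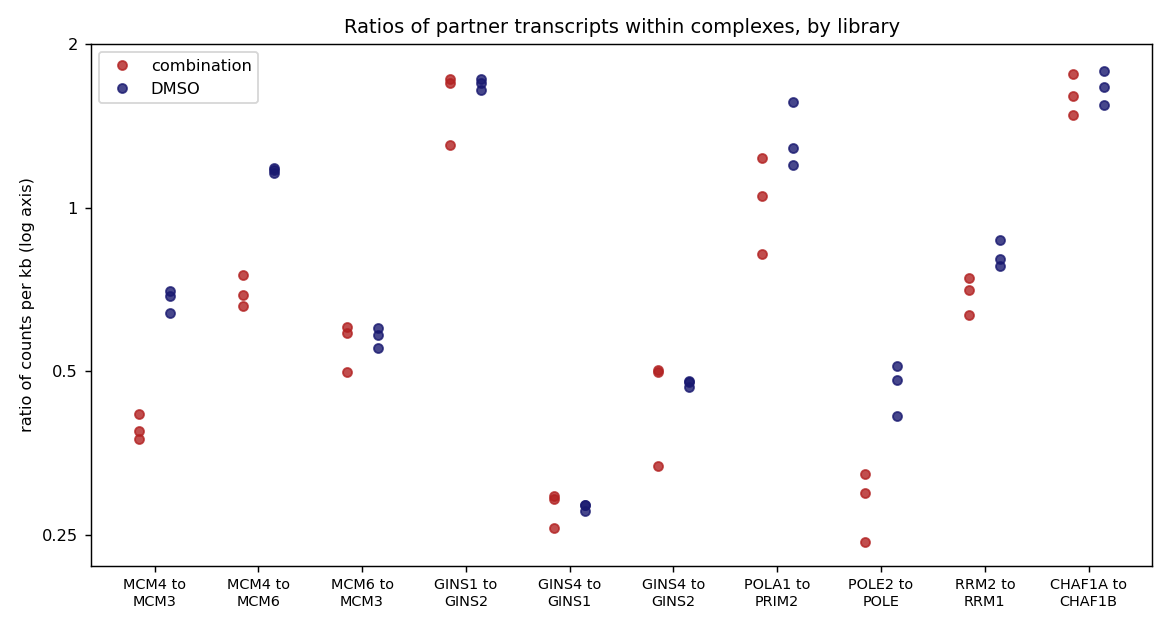
Ratio of counts per kb (log axis) of partner transcripts in each library, combination in red left of DMSO in dark blue, for 10 pairs of one complex. The groups are apart for MCM4 to MCM3, MCM4 to MCM6, POLE2 to POLE and RRM2 to RRM1, and combination replicate 1 is the lowest point of both GINS2 pairs.

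Combination replicate 1 differed from replicates 2 and 3 by more than these did from each other. Over listed genes with at least 20 reads in the pair, its counts differed from theirs by a mean chi-square of 24.5 and 17.5 per gene, against 2.86 between replicates 2 and 3 and 5.68 to 23.2 between DMSO libraries. It held the highest value of its group in 14 members and the lowest in 10. Its excess over replicates 2 and 3 had a Spearman rho with exon length of -0.30 over the 28 members and of -0.41 over 2326 listed genes with a combination mean of at least 50. Without it all 28 members were still called, as were 1446 of the 1450 genes listed as lower, and the members' median log2 fold change was -1.38.

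Some members share exon bases with another gene. In GENCODE 29, whose coordinates equal those of the table for all 28, ENOSF1 on the opposite strand covers 39.1% of the exon bases of TYMS, AC009630.2 on the opposite strand 21.2% of GINS4, and AC007240.1 on the same strand 20.2% of RRM2. The sources used here do not give the strand setting of the counting, so reads of such pairs cannot be told apart. TYMSOS, which overlaps 7.41% of TYMS, was itself listed as lower. PCNA, FEN1, RRM2 and TYMS also have named pseudogenes, whose reads the counting could have split from them.

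Other replication genes, from 4 lists of 55 genes that the 48 leave out, were counted in the same way. Of these 55, 14 were lower (25.5%) and 1 was higher, against 7.27% lower and 10.3% higher of all genes tested. These lists, and those of E2F and cyclin genes below, were chosen with earlier results of these data known. Each sub-list below is small, and a count given for it is to be read against the same shares. Other licensing genes had 3 of 14 lower, GMNN, TOPBP1 and TICRR. GMNN, geminin, which blocks relicensing, had 522, 502 and 468 normalised counts with the combination and 1367, 1275 and 1388 with DMSO (log2 -1.43 ± 0.10).

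Other fork genes had 4 of 15 lower, TOP2A, ATAD5, DNA2 and WDHD1, and POLD4 higher. TOP2A, the topoisomerase that untangles replicated DNA, had 2067, 3397 and 3156 normalised counts with the combination and 9815, 8827 and 10468 with DMSO (log2 -1.78 ± 0.17). TOP2A was the only gene of these 4 lists that was also listed with ezetimibe alone, where it had 3926, 4109.5 and 4277 normalised counts, against 9846, 8856 and 10481 in the same DMSO libraries under that table's scaling. POLD4, a small subunit of polymerase delta, was at a low level, 84.4, 64.9 and 79.5 with the combination and 23.4, 39.5 and 51.2 with DMSO (log2 1.04 ± 0.30, limma adjusted p = 0.00631 over the listed genes only). The authors' own adjusted p, from a test not named in the sources used here, was 0.0126.

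Among other nucleotide genes, DCK, the kinase that salvages deoxycytidine, had 457, 511 and 539 normalised counts with the combination and 1096, 1124 and 1325 with DMSO (log2 -1.23 ± 0.12). DUT, which clears dUTP, had 833, 830.2 and 754 with the combination and 1901, 1805 and 1812 with DMSO (log2 -1.19 ± 0.10). In both genes every combination library was below every DMSO library. Other chromatin genes had 4 of 11 lower, ASF1B, ESCO2, MMS22L and HELLS. ASF1B, a histone chaperone that feeds CAF-1, had 572, 412 and 459 with the combination and 2007, 2059 and 1849.8 with DMSO (log2 -2.05 ± 0.13). The groups did not overlap in any of the 14 lower genes, as in 99.3% of all genes listed as lower. Of 10 replication checkpoint genes, among them ATR and CHEK1, 0 were listed in the authors' deposited tables, which give no unadjusted p for them. With 17.6% of all genes listed in either direction with the combination, 0 of 10 is no result about these genes.

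The list of E2F factors and their partners had 7 of 16 genes lower with the combination and 0 higher, against 7.27% and 10.3% of all genes. With a single drug 0 of 16 were listed, near the 0.835% of all genes with fenofibrate and 3.47% with ezetimibe, which is no result about them. E2F8, a repressor of S phase genes, had 140.3, 171 and 175 normalised counts with the combination and 1103, 1006 and 1248 with DMSO (log2 -2.78 ± 0.14). TFDP1, the partner with which E2F factors bind DNA, had 1700.0, 1730.0 and 1657 with the combination and 5885, 5703 and 6205 with DMSO (log2 -1.81 ± 0.09). E2F2 and E2F1, which activate S phase genes, had log2 fold changes of -2.51 and -2.01. MYBL2, E2F7 and RBL1 were the other 3.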

How the data were processed

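Reads were processed with fastp, HISAT2 2.0.5 and featureCounts 1.5.0-p3 on hg38, per the submitters' processing notes. The authors' normalisation and comparison tool was not given in the sources used here. Per the file headers, each deposited table holds a signal per library, group means, a log2 fold change and p-values. The signal in the combination table was found to be read counts divided by a factor per library (100% of values whole within 0.01 reads). The number of genes the authors tested was inferred from their p-values and adjusted p-values (89.7% of those used gave a whole rank within 0.02 in the combination table, 89.1% for ezetimibe and 58.8% for fenofibrate).

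Each table was fitted with limma 3.58.1 (trend, R 4.3.3) on log2 of the signal plus 1, treated against DMSO, 2-sided, with Benjamini-Hochberg adjustment over the table and a threshold of 0.05. The script was tested on simulated data. Members and lists were chosen with earlier results of these data known. All listed members are named. Values per library are given for the 3 largest changes of each step, 1 further member of each other role, and the 3 nearest the listing limit, and up to 4 genes are named from each list. The values of 1 gene of the lists are not reported here. POLD4, MYBL2, E2F7, RBL1 and some cyclin and inhibitor genes, as well as the partner pairs, were picked after their values were seen. edgeR 4.0.16 and DESeq2 1.42.0 on recovered reads, other pseudocounts, scalings and filters, a replicate block and leaving out libraries were alternatives.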

Additional observations from a re-analysis of the deposited data

How the results depend on the processing

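All 28 members stayed lower and called under each of 14 alternatives: pseudocounts of 0.5 and 5, a mean of at least 50, edgeR and DESeq2 on recovered reads, 2 other scalings, the replicate block, and leaving out each of the 6 libraries. The largest adjusted p among these 392 values was 0.00106. Of the 1450 genes listed as lower, 1442 to 1450 were called as lower under the alternatives other than the filter on the mean. The genes were picked on these same libraries, so the 28 of 28 is no result about the members. Scaling over the listed genes shifted every gene by -0.22 (TMM) or -0.81 (median ratio) on the log2 scale, and the median of the 28 members became -1.60 or -2.20, against -1.39. Both scalings rest on genes all picked as changed, 2058 higher and 1450 lower. The size of these shifts is therefore no estimate of the members' change. Leaving out 1 library gave medians from -1.40 to -1.35. The filter kept 2303 of 3508 called genes for the combination and 295 of 471 for ezetimibe, since fewer genes were tested. Replicate numbers did not pair the libraries (correlations of deviations in the combination table of 0.092, -0.33 and 0.16), and with the replicate block 28 members and 3508 genes were called, as without it.

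Leaving out 1 library turned the sign of 5 partner ratios that overlapped between the groups. Their log2 differences ran from -0.090 to 0.047 for MCM6 to MCM3, -0.186 to 0.017 for GINS1 to GINS2, -0.0412 to 0.0566 for GINS4 to GINS1, -0.219 to 0.0740 for GINS4 to GINS2 and -0.109 to 0.0171 for CHAF1A to CHAF1B. Combination replicate 1 turned each of them. For MCM4 to MCM3 the range was -0.82 to -0.75 and for POLE2 to POLE -0.80 to -0.59. Alternatives on recovered reads were not run for the single drugs, whose tables did not give whole reads. Changes under the listing limit cannot be seen.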

Other observations

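The cyclins that drive entry into S phase, their kinases and the inhibitors of these kinases went both ways with the combination. Of 17 genes 8 were listed as lower, 4 as higher and 5 were not listed, against 7.27% lower and 10.3% higher of all genes tested. CCNE2 and CCNE1, the E cyclins, had log2 fold changes of -2.31 and -2.24. CDK2, the kinase they activate, had 431, 327 and 364 normalised counts in the combination libraries, against 1374, 1269 and 1339.6 in the DMSO libraries (log2 -1.83 ± 0.12). CCND1, cyclin D1, had 5195, 5408 and 5153 with the combination, against 11927, 12622 and 12358 with DMSO (log2 -1.23 ± 0.09).

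The inhibitors were split. CDKN1A, which encodes p21, had 5536, 4312 and 4462 normalised counts with the combination, against 1893, 1955 and 1689.7 with DMSO (log2 1.36 ± 0.12, limma adjusted p = 1.91e-06). CDKN2B and CDKN2A were higher at low levels, with means of 46.5 and 102 with the combination and of 11.1 and 48.2 with DMSO. CDKN2C, an inhibitor of the cyclin D kinases, was lower, with 147, 112 and 116 with the combination, against 692, 809.7 and 629 with DMSO (log2 -2.50 ± 0.16). CDKN2D was lower as well (log2 -1.17). CCND2, cyclin D2, was listed as higher with the combination and with ezetimibe, with 127, 89.0 and 89.1 with the combination, against 3.91, 10.1 and 9.61 with DMSO. The genes named here beyond the 4 of largest change were chosen after their values were seen.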
